A study of Mus musculus with 12 samples.

Results

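Primary endothelial cells (ECs) were cultured from the cortex of adult mice and of mice at E13.5, where E stands for embryonic day. The comparison set the adult cultures labelled as controls against the E13.5 cultures, which were grown in the same way. It used the 6 mRNA-seq libraries with these labels, 3 per stage, out of 12 in the series, and every gene of the deposited table whose normalized count reached 10 in 2 or more of the 6, which kept 14763 of 21611 genes. Both stages are labelled wild type and cortical endothelial, and by the methods the strain was C57BL/6J. The adults were males, given as 2 to 3 months old in the methods and as 3 to 4 months elsewhere, and the sex of the embryos was not determined. Meninges or pial membranes were removed, cortices were pooled, and the cells were grown on type 1 collagen in the same medium and used at the second passage. A library is therefore a culture grown from pooled tissue and not a sample of vessels taken directly from the brain. The question was which genes ECs express while the blood-brain barrier (BBB) forms and which they express once it is mature.

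The BBB is a property of brain ECs, which seal their contacts with claudins and other junction proteins, restrict transport through vesicles and carry nutrients across with dedicated transporters. Brain vessels acquire these features during embryonic life under signals from neural progenitors and pericytes, Wnt ligands among them, whereas ECs of liver, lung or lymph vessels carry other receptors and other transcription factors. ECs of each region also keep part of the positional code of the embryo, of which the Hox genes of the trunk and the forebrain factors of the head are the usual readouts. In culture, brain ECs are known to lose part of their barrier genes.

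Reads on genes numbered 26998907 to 31692256 per adult control library and 25968359 to 31665255 per E13.5 library. They fell on 13948 to 14556 genes in adult control and on 16634 to 16834 genes in E13.5 libraries. Adult control replicates 1 and 2 lay close together (r = 0.993 across genes on the log2 scale), while replicate 3 lay apart from both (0.962 and 0.957) and nearer to a library of Wnt3a-treated adult cells (0.991). Of the E13.5 libraries, replicates 2 and 3 were the close pair (0.993), with replicate 1 apart at about 0.965. Between stages r was 0.646 to 0.676. Nothing in the labels says whether the close pairs are separate cultures. Each log2 fold change is the adult control mean minus the E13.5 mean, on the scale of the log2 of the normalized count plus 1, and was tested with limma over all genes kept, with a Benjamini-Hochberg adjusted p under 0.05 as the threshold. The fit held all 12 libraries, so the spread behind each standard error (SE) also comes from the 6 treated adult libraries, which enter no comparison here.

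Both sets carry the endothelial label, but pan-endothelial genes were read at far lower levels in E13.5 libraries. Of these 36 genes, 36 had a mean of at least 100 in adult control libraries and 12 in E13.5 libraries. All 36 pan-endothelial genes were higher in adult control libraries, where 20.3% of all genes tested were higher. Their summed normalized count was 433881 to 577646 in adult control libraries and 8488 to 9267 in E13.5 libraries. By the methods purity was judged with CD31 and isolectin B4 as markers, and the paper reports it as high. Pecam1, the gene of CD31, had 74703, 81545 and 58849 in adult control libraries, against 45.3, 62.4 and 70.6 in E13.5 libraries. The paper also reports lower expression of Pecam1 and other endothelial genes at E13.5. In the other direction, 22 of 26 neural progenitor genes, 13 of 14 astrocyte genes, 23 of 29 neuronal genes, 13 of 14 mural cell genes and 16 of 18 fibroblast genes were lower in adult control libraries, where 33.7% of all genes tested were lower. The progenitor factor Sox2 had no read in any adult control library, against 4052, 4878 and 4683 in E13.5 libraries. The astrocyte water channel gene Aqp4 had no read in any adult control library, against 1068, 866 and 918 in E13.5 libraries. Acta2, which encodes smooth muscle actin, had 15.6, 12.2 and 7.89 in adult control libraries, against 32866, 20577 and 19743 in E13.5 libraries. The paper describes neuronal, astrocyte and pericyte signal in the isolated cells as low or absent. Its discussion allows that transcripts of other cells may be present. The astrocyte and mural genes given here were not low in E13.5 libraries. The summed normalized counts were 17175 to 40787 in adult control and 50090.5 to 83644 in E13.5 libraries for the mural list. Of the adult sum 99.4% to 99.6% came from Cald1, a caldesmon gene read in many cell types, and without it the list summed to 104 to 152 in adult control and 34624 to 56728 in E13.5 libraries. For the neural progenitor list the sums were 121364 to 157588 in adult control and 165425 to 173567 in E13.5 libraries. Vim, which ECs also express, made up 87.4% to 95.9% of the adult sum, and without it the list summed to 6528 to 15254 in adult control and 68920.1 to 86359 in E13.5 libraries. For the fibroblast list the sums were 272 to 444 in adult control and 8577 to 24369 in E13.5 libraries. For the neuronal list the sums overlapped, with 15352.5 to 31649 in adult control and 20684 to 28167 in E13.5 libraries. Its member with the highest adult mean made up 64.2% to 67.2% of the adult sum. Without that member the neuronal list summed to 5492 to 10480 in adult control and 20173 to 27728.5 in E13.5 libraries. Of the microglial and macrophage genes 2 were higher and 13 lower of 18 (median -3.89). They summed to 9654 to 16739 in adult control and 2653 to 3727 in E13.5 libraries. Cd68 made up 77.2% to 88.6% of the adult sum, and without it the list summed to 1895 to 2198 in adult control and 2271 to 2420 in E13.5 libraries. Members at or near 0 at 1 stage passed the filter through the other stage, so the counts of these lists are descriptions. In bulk libraries fewer cells of a type and less RNA per cell cannot be told apart, and the part of these other cell types in the results below was not tested. The 2 sets are therefore named here by the stage on their labels.

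Over all genes tested, 2990 were higher and 4975 lower in adult control libraries (20.3% and 33.7%, or 54% in either direction), and the median log2 fold change was -0.20. The counts of every list below are to be set beside these shares. Decreases were also larger than increases. Of the genes called, 1831 were higher and 4026 lower by at least 1 log2 unit, and 249 were higher and 1551 lower by at least 5. The libraries of the 2 stages did not overlap in 63.4% of genes, and in 30.6% the 95% interval of the log2 fold change lay wholly within 1 unit of 0. Of 65 gene lists, 47 had more members lower than higher. The split depended on the scaling: 37.5% of called genes were higher with the deposited size factors, against 31.1% with libraries set to the same total and 55.5% with quantile normalization, which moved the median of all genes by -0.13 and 0.30. With the close pairs each averaged to 1 replicate, 1899 genes were higher and 3816 lower.

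**Figure D1:**
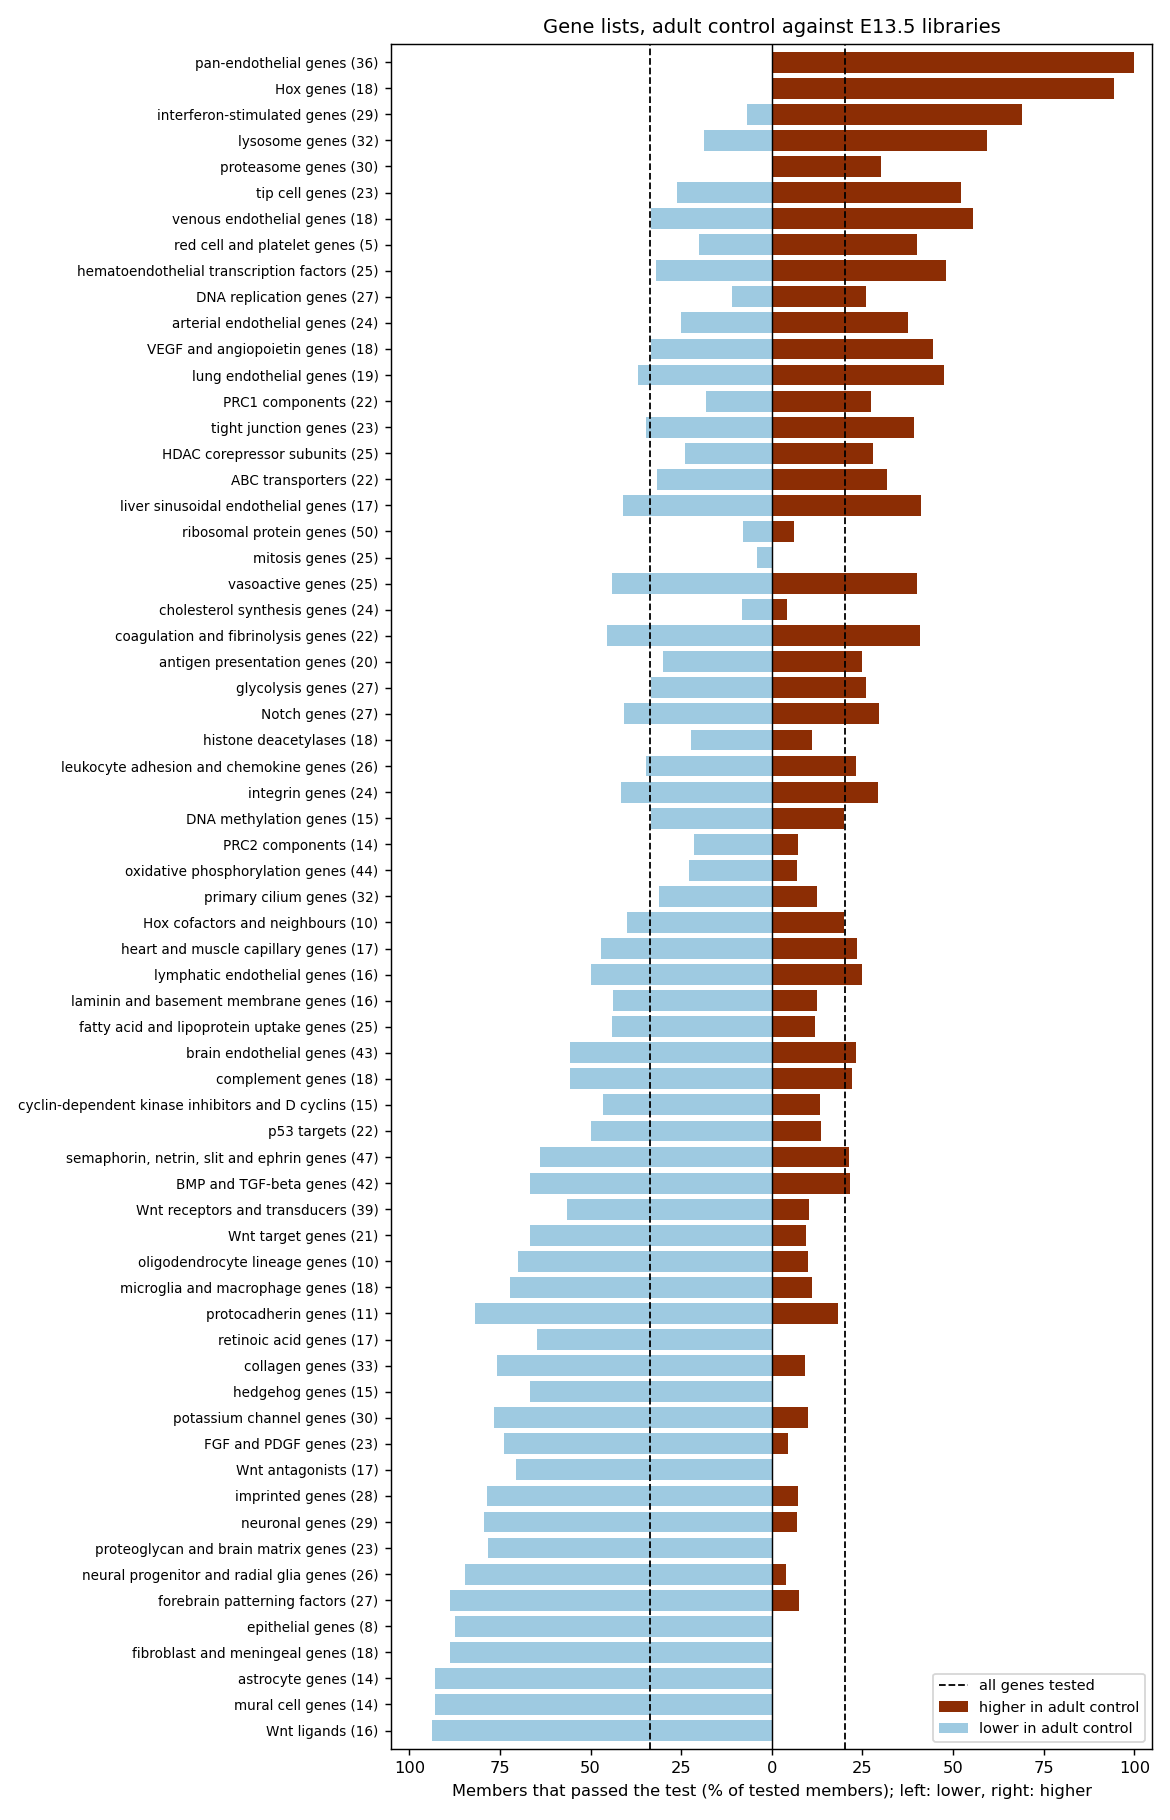
Share of the tested members of each of 65 gene lists that passed the limma test higher in adult control libraries (right, dark) or lower (left, light), in percent, with the number of tested members after the name. The dashed lines mark the shares over all 14763 genes tested, 20.3% higher and 33.7% lower. Pan-endothelial genes reach 100% higher, while forebrain, neural, mural and fibroblast lists lie almost wholly to the left.

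Genes that carry a brain, liver, lung or lymphatic EC identity did not move together. Of 43 brain EC genes tested, 10 were higher and 24 lower in adult control libraries (median -1.03). Slco1c1, a thyroid hormone transporter of brain capillaries, had no read in any adult control library, against 237, 377 and 366 in E13.5 libraries. Slc38a3, a glutamine transporter, had 0, 2.03 and 0 in adult control libraries, against 896, 1061 and 969.5 in E13.5 libraries. Both transporters were thus at or near 0 in every adult control culture. Which cells of the E13.5 cultures gave their reads was not tested. The amino acid transporter gene Slc7a5, which brings large neutral amino acids into the brain, was lower at 1415, 1674 and 704 in adult control libraries, against 3303, 7446 and 7471 in E13.5 libraries (log2 fold change -2.26 ± 0.44 SE, adjusted p = 0.00124). Slc2a1, the glucose transporter of the BBB, did not pass the test, or in short was not called. It had 3252, 3476 and 1789 in adult control libraries, against 2465, 3271 and 3034 in E13.5 libraries, and its log2 fold change had a 95% interval of -0.94 to 0.75. The interval of the drug efflux pump gene Abcb1a was -1.04 to 1.81, around values of 143, 124 and 110.4 in adult control libraries, against 163, 67.6 and 79.2 in E13.5 libraries. Among the members that were higher, Ly6c1, a surface antigen, had 15981, 16881 and 4328 in adult control libraries, against 46.1, 4.34 and 2.86 in E13.5 libraries. Cgnl1, which encodes the junction protein paracingulin, had 21599, 23114 and 26588 in adult control libraries, against 2906, 2624 and 3203 in E13.5 libraries. The groups did not overlap for any of these genes except Slc2a1 and Abcb1a. Over all genes tested 63.4% did not overlap, and these genes were named with their values known.

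Several genes that mark the sinusoidal ECs of the liver were read only or mainly in adult control libraries. Stab1, a scavenger receptor, had 16672, 19779.5 and 11548 in adult control libraries, against 181, 186 and 157 in E13.5 libraries (log2 fold change 6.48 ± 0.88 SE, adjusted p = 8.38e-05). F8, the clotting factor VIII gene, had 3241, 3107 and 11866 in adult control libraries, against 56.4, 19.1 and 31.5 in E13.5 libraries. Tfec, a transcription factor, had 979, 797 and 932 in adult control libraries, against 7.95, 6.94 and 3.82 in E13.5 libraries. Clec1b, a lectin receptor, had 80.7, 70.1 and 54.2 in adult control libraries and no read in any E13.5 library. The adult control and E13.5 libraries did not overlap for these 4 genes, as for 63.4% of all genes tested. Most named members were picked for a lack of overlap or for values near 0, so this is a description. Other genes of this list went the opposite way, for example Maf, a transcription factor of sinusoidal ECs and of many other cells, with no read in any adult control library, against 1992, 1484 and 1509 in E13.5 libraries. Of 17 tested, 7 were higher and 7 lower. The lymphatic list had 4 higher and 8 lower of 16. Its master regulator Prox1 had 0, 0 and 1.97 in adult control libraries, against 429, 853 and 865 in E13.5 libraries. Pdpn, which encodes podoplanin, had 1.73, 0 and 0 in adult control libraries, against 6217, 6492 and 6655 in E13.5 libraries. Both are also read in neural progenitors or mesenchyme.

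Lung EC genes gave 9 higher and 7 lower of 19 (47.4% and 36.8%, against 20.3% and 33.7% of all genes tested). Foxf1, a transcription factor of lung and gut vessels, had 1402, 1688 and 1709 in adult control libraries, against 19.1, 26.0 and 17.2 in E13.5 libraries. Gpihbp1, which anchors lipoprotein lipase on capillaries, had 1268, 1595 and 561 in adult control libraries, against 1.59, 0 and 0 in E13.5 libraries. Icam1, the leukocyte adhesion receptor, had 1.73, 0 and 25.6 in adult control libraries, against 277, 547 and 527 in E13.5 libraries. Venous genes had 10 higher and 6 lower of 18 (55.6% and 33.3%), so only the share that was higher differed much from that of all genes. Nr2f2, the transcription factor that specifies veins, was higher at 4189.9, 4083 and 3468 in adult control libraries, against 1416, 601 and 499 in E13.5 libraries (log2 fold change 2.37 ± 0.32 SE, adjusted p = 7.49e-05). The venous receptor gene Ephb4 was higher at 8240.1, 8277 and 8270.3 in adult control libraries, against 1072, 648 and 741 in E13.5 libraries (log2 fold change 3.36 ± 0.37 SE, adjusted p = 1.51e-05). Arterial genes had 9 higher and 6 lower of 24 (37.5% and 25%). Dll4, a Notch ligand of arteries and tip cells, had 2969, 2936 and 1724 in adult control libraries, against 20.7, 90.2 and 68.7 in E13.5 libraries. Hey1, a Notch target, went the other way with 26.0, 34.6 and 27.6 in adult control libraries, against 1168, 1950.1 and 1944 in E13.5 libraries. Efnb2, the ligand of Ephb4 that marks arteries, was not called, with 2214, 2097 and 5939 in adult control libraries, against 2318, 2232 and 2322 in E13.5 libraries, and its interval was -0.55 to 1.35. In the adult control libraries both venous and arterial genes were thus read in the same cultures, and the median of the arterial list, -0.22, changed sign with quantile normalization.

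The transcription factors shared by ECs and blood progenitors had 12 members higher and 8 lower of 25 tested. Gata2 was higher at 4473, 4743 and 1092 in adult control libraries, against 226, 85.0 and 79.2 in E13.5 libraries (log2 fold change 4.62 ± 0.57 SE, adjusted p = 3.86e-05). Bcl6b, a repressor enriched in ECs, had 21447, 23942 and 15262 in adult control libraries, against 56.4, 26.9 and 34.4 in E13.5 libraries. Mecom, also called Evi1, had 2116, 1815 and 4809 in adult control libraries, against 87.4, 35.6 and 34.4 in E13.5 libraries. The Runx factors, of which Runx1 starts blood formation from endothelium in the embryo, were not among the genes that were higher. Runx2 was lower at 17.3, 14.2 and 87.8 in adult control libraries, against 826, 841 and 879 in E13.5 libraries (log2 fold change -4.86 ± 0.67 SE, adjusted p = 9.41e-05). Runx1 was not called, with 979, 949 and 346 in adult control libraries, against 1773, 1778 and 1896 in E13.5 libraries. Runx3 had no read in any adult control library, against 12.7, 53.8 and 70.6 in E13.5 libraries.

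The positional genes split by body region. Of 39 Hox genes, 18 passed the filter, 17 of them higher in adult control libraries. Those that passed did so through the adult libraries, so the count is given as a description. Hox genes lie in 4 clusters and encode the transcription factors that set position along the trunk and limbs. In the cluster on chromosome 11, Hoxb8 had 4955, 5572 and 6685 in adult control libraries, against 1.59, 1.73 and 0 in E13.5 libraries. Its neighbour Hoxb7 had 2403, 2555 and 2567 in adult control libraries and no read in any E13.5 library, at least 876-fold higher when the E13.5 libraries are set to a floor of 3 reads per library. Hoxb6 had 1767, 1745 and 1803 in adult control libraries and no read in any E13.5 library. Each of these 3 genes stayed within a narrow range over the adult cultures and was at or near 0 in each E13.5 culture. In the cluster on chromosome 2, Hoxd8 had 2459, 2759 and 7221 in adult control libraries, against 7.95, 0 and 0 in E13.5 libraries. Hoxd10 of the same cluster had 812, 913 and 834 in adult control libraries and no read in any E13.5 library. In the cluster on chromosome 6, Hoxa7 had 933, 942 and 797 in adult control libraries, against 0, 5.20 and 8.59 in E13.5 libraries. The 9 genes of the cluster on chromosome 15 were low at both stages, with a largest value of 17.3 in any E13.5 library. No E13.5 library exceeded 8.59 for a gene of the other 3 clusters. Of the cofactors and neighbours of Hox genes 4 were lower and 2 higher of 10. The cofactor Pbx3 was higher at 1111, 1266 and 1075 in adult control libraries, against 571, 436 and 412 in E13.5 libraries (log2 fold change 1.29 ± 0.23 SE, adjusted p = 6.70e-04). Meis2, which encodes another partner of Hox proteins, was not called, with 2215, 2268 and 8022 in adult control libraries, against 2257, 3896 and 3782 in E13.5 libraries.

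Of 33 forebrain factors 27 passed the filter, 24 of them lower and 2 higher. In adult control libraries 17 of the 33 had no read, so any of these that passed did so through the E13.5 libraries, and this count too is a description. Otx2, which patterns the anterior brain, had no read in any adult control library, against 663, 617 and 656 in E13.5 libraries. Emx2, a factor of the dorsal cortex, had no read in any adult control library, against 416, 508 and 562 in E13.5 libraries. The factor of ventral forebrain Nkx2-1 had 0, 0 and 0.986 in adult control libraries, against 501, 639 and 661 in E13.5 libraries. Dlx2, a factor of interneuron progenitors, had 1.73, 2.03 and 3.94 in adult control libraries, against 566, 589 and 636 in E13.5 libraries. Dorsal and ventral forebrain factors were therefore read in the same E13.5 cultures. The exceptions were Lhx6 and Lhx8, which were higher, and Dmrta2, which was not called. Lhx6, a factor of interneurons, had 1049.6, 1006 and 887 in adult control libraries, against 66.7, 38.2 and 42.0 in E13.5 libraries (log2 fold change 4.34 ± 0.33 SE, adjusted p = 8.65e-07). Lhx8 had 39.9, 44.7 and 11.8 in adult control libraries, against 1.59, 5.20 and 1.91 in E13.5 libraries. Dmrta2 had 308, 263 and 1.97 in adult control libraries, against 246, 446 and 383 in E13.5 libraries, so that adult control replicate 3 alone stood near 0.

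**Figure D2:**
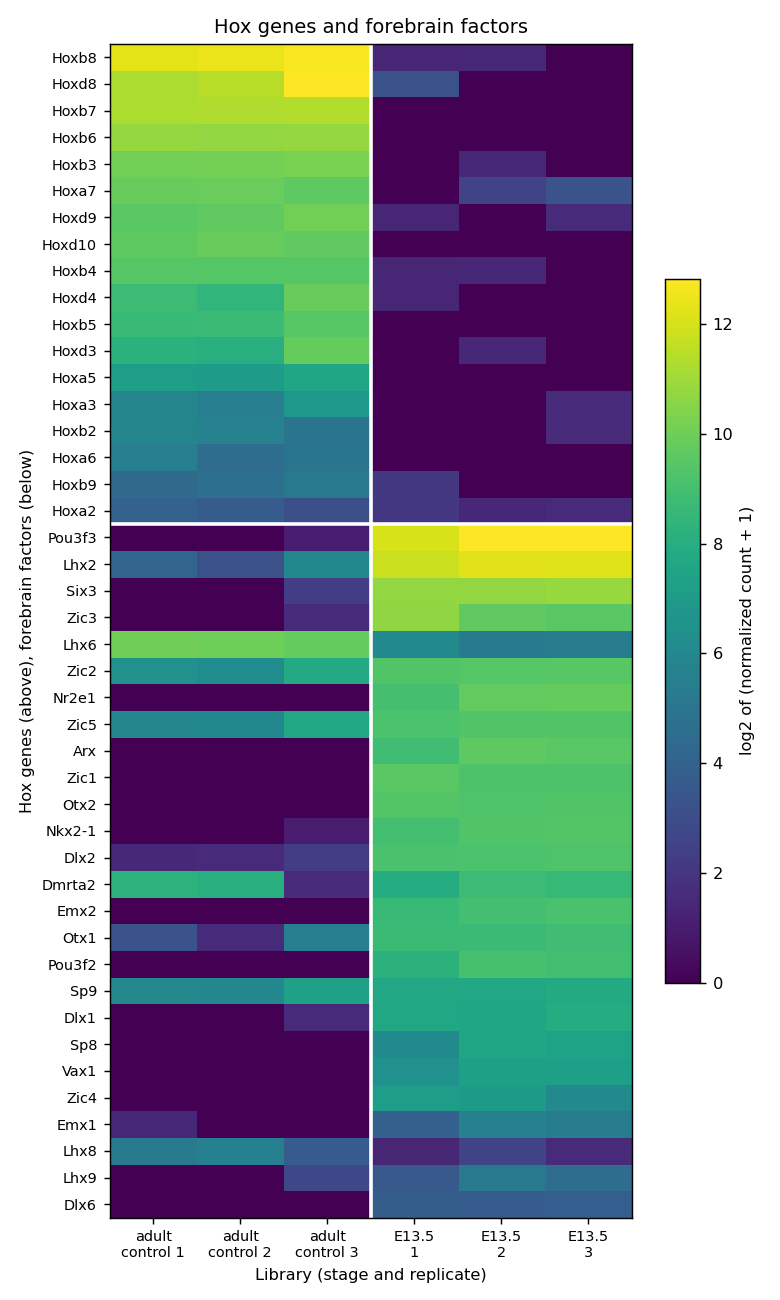
Heat map of the log2 of the normalized count plus 1 in each library (columns, adult control replicates 1 to 3 left and E13.5 replicates 1 to 3 right) for the Hox genes (upper rows) and 26 of the 27 forebrain factors (lower rows) that passed the filter. Hox rows are filled in the 3 adult control columns and forebrain rows in the 3 E13.5 columns, with Lhx6, Lhx8 and, in adult control replicates 1 and 2, Dmrta2 as exceptions and Zic2, Zic5 and Sp9 read at both stages.

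To show the letters behind such genes, the 250 bases before the start site of 4 of them are given from the RefSeq table of GRCm38.p6, 5′ to 3′ on the strand of the gene, with CpG dinucleotides in capitals. Hoxb8 was read in adult control libraries and at or near 0 at E13.5, and Ncan and Bmpr1a the other way round. Notch4 had 11995, 12249.7 and 6622 in adult control libraries, against 45.3, 59.8 and 62.0 in E13.5 libraries, so it was read at both stages and was far lower at E13.5.
Hoxb8 at chr11:96281655-96281904, plus strand: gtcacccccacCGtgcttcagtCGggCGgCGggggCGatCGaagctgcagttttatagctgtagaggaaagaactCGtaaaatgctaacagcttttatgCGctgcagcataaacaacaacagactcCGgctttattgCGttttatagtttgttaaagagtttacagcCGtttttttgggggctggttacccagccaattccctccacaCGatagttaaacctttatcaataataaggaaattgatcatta
Notch4 at chr17:34564045-34564294, plus strand: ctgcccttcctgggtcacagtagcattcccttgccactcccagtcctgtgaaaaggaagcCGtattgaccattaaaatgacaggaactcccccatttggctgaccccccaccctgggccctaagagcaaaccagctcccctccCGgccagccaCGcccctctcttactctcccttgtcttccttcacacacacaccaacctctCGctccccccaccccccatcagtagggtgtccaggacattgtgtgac
Ncan at chr8:70120845-70121094, minus strand: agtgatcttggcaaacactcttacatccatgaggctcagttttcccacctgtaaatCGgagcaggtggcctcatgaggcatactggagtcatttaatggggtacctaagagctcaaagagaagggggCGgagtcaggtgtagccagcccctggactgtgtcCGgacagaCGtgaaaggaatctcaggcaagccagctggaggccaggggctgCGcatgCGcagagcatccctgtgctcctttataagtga
Bmpr1a at chr14:34502547-34502796, minus strand: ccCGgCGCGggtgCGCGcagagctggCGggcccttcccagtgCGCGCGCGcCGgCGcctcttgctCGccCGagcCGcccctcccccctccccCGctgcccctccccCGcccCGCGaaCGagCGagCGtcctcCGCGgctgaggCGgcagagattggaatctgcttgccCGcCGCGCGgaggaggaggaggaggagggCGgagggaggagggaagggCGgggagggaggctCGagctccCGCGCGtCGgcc
The windows hold 12, 4, 6 and 36 CpG, in that order, and their ratios of observed to expected CpG are 0.974, 0.226, 0.329 and 0.928. Over the 27025 genes of the table the median window holds 6 CpG, and 34.5% of windows have a ratio of at least 0.6. CpG-rich and CpG-poor windows thus occurred in both directions among these 4. A comparison of all called genes was void, because 78.4% of the genes tested matched a promoter in the table, under the 80% set as the minimum.

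Imprinted genes, which are read from only 1 parental copy and often regulate embryonic growth, were lower as a group. Of 28 tested, 22 were lower and 2 higher in adult control libraries (median -4.82, against -0.20 over all genes). Igf2, the embryonic growth factor, was lower at 128, 132 and 882 in adult control libraries, against 14660.5, 2743 and 2599 in E13.5 libraries (log2 fold change -4.25 ± 1.59 SE, adjusted p = 0.042). The call of Igf2 was lost without adult control replicate 1, adult control replicate 2, E13.5 replicate 1, E13.5 replicate 2 or E13.5 replicate 3, left out in turn (adjusted p = 0.0634 to 0.141). Igf2r, the receptor that clears this growth factor, was also lower at 88.5, 83.4 and 296 in adult control libraries, against 10848, 6405 and 7015 in E13.5 libraries (log2 fold change -5.91 ± 0.66 SE, adjusted p = 1.75e-05). E13.5 replicate 1 stood above replicates 2 and 3 for Igf2, and all 3 stood above every adult control library. Ndn, which encodes necdin, had no read in any adult control library, against 2418, 1412 and 1109 in E13.5 libraries. Peg3, a zinc finger gene, had 0, 0 and 166 in adult control libraries, against 6803, 7598 and 8219.8 in E13.5 libraries, so that replicate 3 alone held reads among the adult cultures. Plagl1, which encodes a zinc finger regulator of other imprinted genes, had 69.4, 52.9 and 524 in adult control libraries, against 4197, 6226 and 5741 in E13.5 libraries. The 2 members that were higher were Kcnq1, a potassium channel gene imprinted in the embryo, with 4114, 4672 and 1859.5 in adult control libraries, against 6.36, 2.60 and 5.73 in E13.5 libraries, and Sgce. Sgce, the gene of epsilon-sarcoglycan, had 1805, 1797 and 1878 in adult control libraries, against 1173, 791 and 776 in E13.5 libraries. Mest was not called, with 19883, 15952 and 28959 in adult control libraries, against 31578, 30896 and 30359 in E13.5 libraries and an interval of -2.07 to 0.95.

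Regulators of chromatin moved less than these genes. Of 18 histone deacetylases, 2 were higher and 4 lower (11.1% and 22.2%), against 20.3% and 33.7% of all genes tested. Intervals within 1 unit of 0 were found for 4 of the 18, and for 30.6% of all genes. Hdac2, which removes acetyl groups from histones in several repressor complexes, was not called, with 3295, 2929.8 and 6013 in adult control libraries, against 4829, 5088 and 4731 in E13.5 libraries and an interval of -0.99 to 0.32. Its close relative Hdac1 was not called either (-0.63 to 0.19). Hdac9 was lower at 49.4, 72.2 and 66.1 in adult control libraries, against 546, 669 and 569 in E13.5 libraries (log2 fold change -3.24 ± 0.43 SE, adjusted p = 6.94e-05). Hdac11 was lower at 1.73, 0 and 77.9 in adult control libraries, against 184, 251 and 284 in E13.5 libraries (log2 fold change -5.30 ± 2.00 SE, adjusted p = 0.0426). The call of Hdac11 was lost without adult control replicate 1, adult control replicate 2, E13.5 replicate 1, E13.5 replicate 2 or E13.5 replicate 3, left out in turn (adjusted p = 0.0797 to 0.152). Hdac3 was lower (-0.80, adjusted p = 8.64e-04), and Hdac8 higher (1.23, adjusted p = 0.00205). The 2 enzymes that can methylate histone H3 in Polycomb repressive complex 2 moved in opposite directions. Ezh2 was lower at 689, 479.8 and 1083 in adult control libraries, against 2583, 2018 and 1868 in E13.5 libraries (log2 fold change -1.59 ± 0.30 SE, adjusted p = 0.00101). Ezh1 was higher at 1780.0, 2114 and 1320.2 in adult control libraries, against 416, 465 and 462 in E13.5 libraries (log2 fold change 1.93 ± 0.21 SE, adjusted p = 1.59e-05). Their partners Eed and Suz12 were not called, with intervals of -0.75 to 0.04 and -0.35 to 0.75. Of 15 DNA methylation genes 3 were higher and 5 lower (20% and 33.3%), close to the shares over all genes. Among them, Tet1, which oxidizes methylcytosine, had 0, 2.03 and 41.4 in adult control libraries, against 447, 904 and 1011 in E13.5 libraries. Tet3, which does the same, was higher at 6555, 7097 and 2856 in adult control libraries, against 1612, 2122 and 2372 in E13.5 libraries (log2 fold change 1.34 ± 0.37 SE, adjusted p = 0.00969). Dnmt3a, a de novo methyltransferase gene, was lower at 449, 523 and 1204 in adult control libraries, against 3637, 4361 and 4613 in E13.5 libraries (log2 fold change -2.67 ± 0.43 SE, adjusted p = 3.13e-04). The maintenance enzyme gene Dnmt1 was not called (0.02 to 1.24). Of 25 subunits of HDAC corepressor complexes, 7 were higher, 6 lower and 15 had intervals within 1 unit of 0, where 30.6% of all genes did. The medians of the HDAC and Polycomb lists changed sign with quantile normalization.

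Interferon-stimulated genes, which respond to viral nucleic acid and cytokines, were mostly higher in adult control libraries. Of 29 tested, 20 were higher and 2 lower (median 2.35). Stat2, which encodes a factor that carries the signal to the nucleus, had 3421, 3817 and 1541 in adult control libraries, against 558, 527 and 564 in E13.5 libraries (log2 fold change 2.31 ± 0.36 SE, adjusted p = 2.22e-04). Ddx58, which encodes the RNA sensor RIG-I, had 3724, 3849 and 4342 in adult control libraries, against 497, 336 and 323 in E13.5 libraries (log2 fold change 3.39 ± 0.19 SE, adjusted p = 8.87e-08). The antiviral membrane gene Ifitm3 had 9463, 11607 and 9718 in adult control libraries, against 2206, 1389.9 and 1302 in E13.5 libraries. Xaf1, named for its binding to the apoptosis inhibitor XIAP, had 1694, 1677 and 1870.4 in adult control libraries, against 15.9, 8.67 and 12.4 in E13.5 libraries. Oas1a, which makes the second messenger of RNase L, had 382, 349 and 219 in adult control libraries, against 7.15, 3.47 and 1.91 in E13.5 libraries. No adult control library overlapped an E13.5 library for these 5 genes, as for 63.4% of all genes tested. They were named with their values known, so this is a description. Ifit2 went the other way, with 71.1, 52.9 and 610.3 in adult control libraries, against 625, 599 and 651 in E13.5 libraries, where adult control replicate 3 reached the E13.5 range. The call of Ifit2 was lost without adult control replicate 1, adult control replicate 2, E13.5 replicate 1, E13.5 replicate 2 or E13.5 replicate 3, left out in turn (adjusted p = 0.0509 to 0.0887). Ifitm1 was also lower, with 1.73, 2.03 and 0 in adult control libraries, against 74.7, 20.8 and 26.7 in E13.5 libraries.

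The genes that show antigens did not follow as a group, with 5 higher and 6 lower of 20, a split that became 7 higher and 3 lower with quantile normalization. The class I gene H2-D1 was higher at 14757, 16238 and 6271 in adult control libraries, against 749, 649 and 600.2 in E13.5 libraries (log2 fold change 4.11 ± 0.32 SE, adjusted p = 1.06e-06). B2m, the light chain of class I, was higher at 5155, 4917 and 7737 in adult control libraries, against 3525, 2534 and 2361 in E13.5 libraries (log2 fold change 1.07 ± 0.20 SE, adjusted p = 8.52e-04). H2-K1, another class I gene, was not called, with 730.4, 863 and 26.6 in adult control libraries, against 886, 1211 and 1175 in E13.5 libraries, where adult control replicate 3 stood far below the rest. These class I genes are close copies of each other, so reads may have been split between them. Tap1, which pumps peptides for class I, was lower at 64.2, 36.6 and 178 in adult control libraries, against 424, 401 and 445 in E13.5 libraries (log2 fold change -2.48 ± 0.49 SE, adjusted p = 0.00135). Nlrc5, the activator of class I genes, had no read in any adult control library, against 46.1, 90.2 and 97.3 in E13.5 libraries. Of 32 lysosome genes, 19 were higher and 6 lower. Ctsd, which encodes cathepsin D, was higher at 61505, 65930.0 and 36711 in adult control libraries, against 28642, 24619 and 24619 in E13.5 libraries (log2 fold change 1.03 ± 0.30 SE, adjusted p = 0.0139). Without adult control replicate 1 or without adult control replicate 2 the call of Ctsd was lost (adjusted p = 0.0524 and 0.0561). Cd68, a lysosomal membrane protein of macrophages and other scavenging cells, was higher at 12445, 14834 and 7456 in adult control libraries, against 337, 1307 and 1194 in E13.5 libraries (log2 fold change 3.78 ± 0.56 SE, adjusted p = 1.53e-04). Against the trend, Ctsc, which encodes cathepsin C, had no read in any adult control library, against 642, 986 and 969.5 in E13.5 libraries. Ctss, which encodes cathepsin S, had no read in any adult control library, against 105, 169 and 159 in E13.5 libraries. The defining microglial gene Csf1r was read at 219, 213 and 108 in adult control libraries, against 277, 261 and 335 in E13.5 libraries. Of the complement genes 4 were higher and 10 lower of 18 (median -2.27). Among those higher, the membrane regulator Cd55, which splits the convertases, was higher with 1352, 1403 and 1838 in adult control libraries, against 288, 147 and 115 in E13.5 libraries. Cd59a, which blocks the final pore, was higher with 499, 616 and 843 in adult control libraries, against 59.6, 13.9 and 9.54 in E13.5 libraries.

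Few mitosis genes passed the test, where 54% of all genes tested did. Of 25 mitosis genes 1, Nusap1, was lower by limma, and the libraries of the 2 stages were apart in 1, Cdc20. Intervals within 1 unit of 0 were found for 2 of the 25, and for 30.6% of all genes. The lack of calls therefore does not show similar levels at both stages. Mki67, the gene of the proliferation antigen Ki-67, had 2809.7, 1454 and 9559.9 in adult control libraries, against 6138, 3761 and 3665 in E13.5 libraries. Top2a, which untangles DNA before division, had 3694, 1795 and 9299 in adult control libraries, against 7206, 3891 and 3509 in E13.5 libraries. In the adult set replicate 3 was highest and replicate 2 lowest for both, and in the E13.5 set replicate 1 was highest. The interval of Mki67 was -1.70 to 0.96, which covers both directions. Genes of DNA replication had 7 higher and 3 lower of 27 (25.9% and 11.1%, against 20.3% and 33.7% of all genes tested). Tyms, which makes thymidylate, was higher at 1137, 789 and 1447 in adult control libraries, against 544, 241 and 208 in E13.5 libraries (log2 fold change 1.85 ± 0.42 SE, adjusted p = 0.00312). Rrm2, a subunit of ribonucleotide reductase, was lower at 1272, 680.1 and 1437 in adult control libraries, against 5872, 2356 and 2253 in E13.5 libraries (log2 fold change -1.55 ± 0.38 SE, adjusted p = 0.0048).

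Of the cyclin-dependent kinase inhibitors and D cyclins 2 were higher and 7 lower of 15, a called share near the 54% over all genes. Ccnd2, which encodes cyclin D2, was lower at 3755, 4007 and 5328 in adult control libraries, against 81067, 77541 and 79326 in E13.5 libraries (log2 fold change -4.20 ± 0.23 SE, adjusted p = 6.96e-08). Ccnd1, which encodes cyclin D1, was not called, with 43094, 37869.5 and 37527 in adult control libraries, against 68504, 53149 and 53602 in E13.5 libraries, no overlap of the libraries and an interval of -1.75 to 0.63. In a fit of the 6 libraries alone Ccnd1 was called (log2 fold change -0.56, adjusted p = 0.0166). Cdk4, the kinase that D cyclins activate, was higher at 16715, 16785 and 10294 in adult control libraries, against 8385, 6881 and 6592 in E13.5 libraries (log2 fold change 0.97 ± 0.23 SE, adjusted p = 0.00404). Rb1, the retinoblastoma gene, was lower at 761, 750.2 and 1451 in adult control libraries, against 3348, 4629 and 4717 in E13.5 libraries (log2 fold change -2.15 ± 0.28 SE, adjusted p = 6.24e-05). Among p53 targets, 11 were lower and 3 higher of 22. Perp, which acts in cell death and in desmosomes, had no read in any adult control library, against 2892, 1929 and 1819 in E13.5 libraries. Pmaip1, which encodes the death protein Noxa, had no read in any adult control library, against 1593, 1685 and 1567 in E13.5 libraries. Ccng1 was lower at 6804, 5677 and 18715 in adult control libraries, against 35726, 38336 and 36025 in E13.5 libraries (log2 fold change -2.03 ± 0.40 SE, adjusted p = 0.00133), although adult control replicate 3 lay well above replicates 1 and 2. Trp53 itself was not called, with an interval of -0.62 to 0.55. Plk2, a kinase of the centriole cycle, was higher at 18051, 19558 and 14186 in adult control libraries, against 2916, 6173 and 6005 in E13.5 libraries (log2 fold change 1.84 ± 0.26 SE, adjusted p = 1.21e-04).

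**Figure D3:**
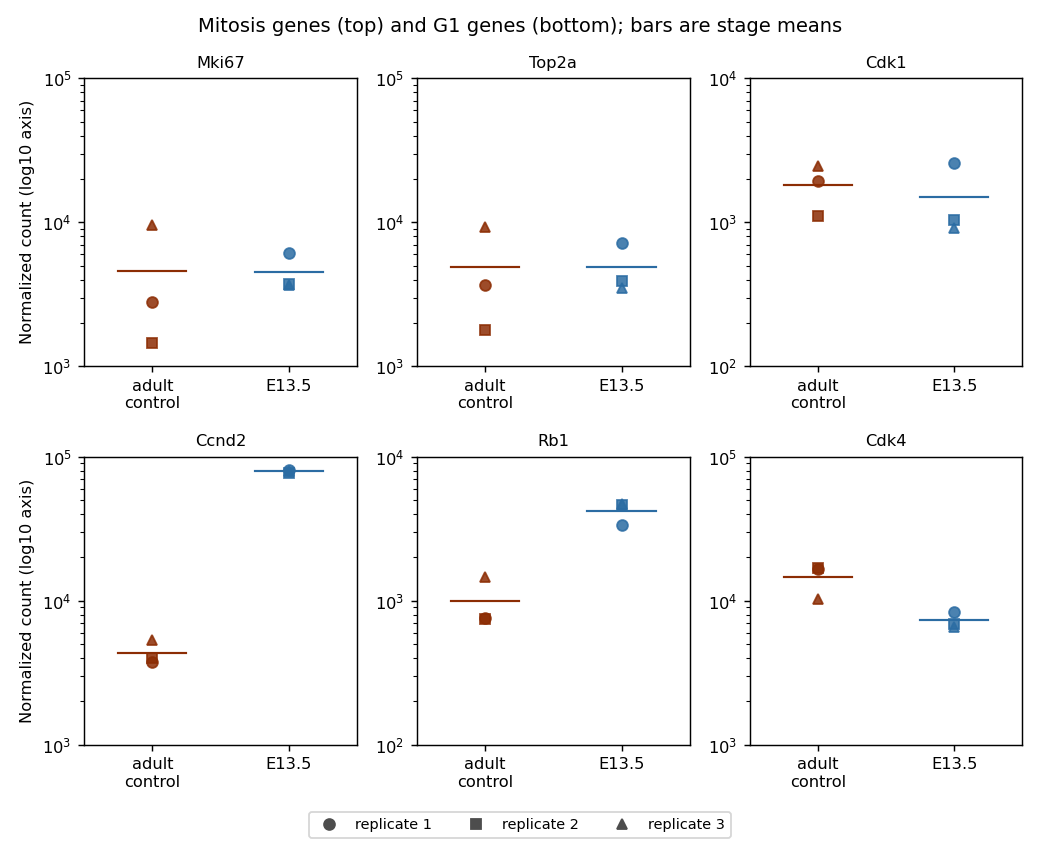
Normalized count, on a log10 axis, of 6 mitosis and G1 genes in adult control libraries (left of each pair, replicates 1 to 3 as circle, square and triangle) and E13.5 libraries (right), with the stage means as bars. The mitosis genes Mki67, Top2a and Cdk1 overlap between the stages, while Ccnd2 and Rb1 lie wholly below the E13.5 values in adult control libraries and Cdk4 wholly above.

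Most genes of the large complexes of basic metabolism had intervals within 1 unit of 0, while some single isozymes differed. Of 50 ribosomal protein genes 43 had intervals within 1 unit of 0, as had 34 of 44 genes of oxidative phosphorylation and 24 of 30 of the proteasome, against 30.6% of all genes. In glycolysis 1 of the 2 main subunits of lactate dehydrogenase passed the test. Ldhb, the heart form, had no read in any adult control library, against 4139.9, 3780.5 and 3196 in E13.5 libraries, at least 1215-fold lower in adult control libraries with these set to the floor of 3 reads per library. Ldha, the muscle form, was not called, with 22289, 23116 and 15398 in adult control libraries, against 13595, 7917 and 7806 in E13.5 libraries, but was higher in a fit of the 6 libraries alone (1.08, adjusted p = 0.017). Aldoc, the brain form of aldolase, had 3.47, 2.03 and 0 in adult control libraries, against 2293, 2448 and 2259.6 in E13.5 libraries. Eno2, the neuronal form of enolase, had 1.73, 6.10 and 0 in adult control libraries, against 610.3, 1196 and 1218 in E13.5 libraries. The common form of aldolase, Aldoa, was not called, with 40064, 45335 and 19629.6 in adult control libraries, against 20190.1, 22164 and 21002 in E13.5 libraries. Slc2a3, the glucose transporter of neurons, had 0.867, 4.07 and 0 in adult control libraries, against 2484, 2789 and 2746 in E13.5 libraries. Fbp1, a fructose bisphosphatase of glucose synthesis, had 573, 640.4 and 617 in adult control libraries, against 0, 1.73 and 3.82 in E13.5 libraries. The muscle form Fbp2 had 435, 551 and 1018 in adult control libraries, against 4.77, 0 and 1.91 in E13.5 libraries. Both forms were therefore read in each adult control culture and at or near 0 in each E13.5 culture. In lipid handling, Cd36, a fatty acid receptor, had 0, 0 and 0.986 in adult control libraries, against 609, 713 and 637 in E13.5 libraries. Abcg1, a cholesterol exporter, had 2387, 2722 and 1604 in adult control libraries, against 36.6, 32.9 and 26.7 in E13.5 libraries. Of 24 cholesterol synthesis genes 1 was higher and 2 were lower, while adult control replicate 3 differed from the other adult cultures in most of them, as given below.

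In several signalling pathways 1 receptor was higher and a related one lower. Of 42 BMP and TGF-beta genes 9 were higher and 28 lower. Bmpr1a, the broadly expressed type 1 BMP receptor, and 1 of the genes whose promoter is given above, had 1.73, 0 and 3.94 in adult control libraries, against 7429.6, 9632 and 9176 in E13.5 libraries. Acvrl1, the type 1 receptor of ECs known as ALK1, had 5489, 5523 and 11195 in adult control libraries, against 389, 144 and 168 in E13.5 libraries (log2 fold change 5.04 ± 0.47 SE, adjusted p = 4.68e-06). Tgfbr2 was higher at 12033, 12621 and 13338 in adult control libraries, against 1724, 986 and 972 in E13.5 libraries (log2 fold change 3.42 ± 0.33 SE, adjusted p = 6.11e-06). Id3, a target of BMP signals that inhibits helix-loop-helix factors, was lower at 95.4, 106 and 80.8 in adult control libraries, against 4579, 2895 and 2862 in E13.5 libraries (log2 fold change -5.15 ± 0.36 SE, adjusted p = 4.73e-07). The Notch receptors were of the same kind. Notch4, the EC receptor, had 11995, 12249.7 and 6622 in adult control libraries, against 45.3, 59.8 and 62.0 in E13.5 libraries. Notch3, the mural receptor, had 0, 0 and 14.8 in adult control libraries, against 1764, 1902 and 2015 in E13.5 libraries. Notch1 was not called, with 6379, 6313 and 5726 in adult control libraries, against 5113, 7412 and 8132 in E13.5 libraries and an interval of -0.57 to 0.29. The ligand Dll1 was higher at 5482, 5632 and 2955 in adult control libraries, against 331, 313 and 331 in E13.5 libraries (log2 fold change 3.79 ± 0.36 SE, adjusted p = 5.47e-06). The feedback target Nrarp was higher at 6746, 6062 and 5386 in adult control libraries, against 261, 416 and 330.2 in E13.5 libraries (log2 fold change 4.19 ± 0.27 SE, adjusted p = 2.50e-07).

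Of the VEGF and angiopoietin genes tested, 8 were higher and 6 lower of 18. These shares were 44.4% and 33.3%, against 20.3% and 33.7% of all genes tested. The receptors Flt1, Kdr, Flt4, Nrp2, Tek and Tie1 were among those higher, and the ligands Vegfa, Angpt1 and Angpt2 among those lower. Kdr, the main VEGF receptor, had 15338, 15451 and 31566 in adult control libraries, against 998, 620.0 and 676 in E13.5 libraries (log2 fold change 4.71 ± 0.38 SE, adjusted p = 1.30e-06). Vegfa, its ligand, had 547, 587 and 331 in adult control libraries, against 3026, 6014 and 6264 in E13.5 libraries (log2 fold change -3.35 ± 0.46 SE, adjusted p = 8.45e-05). Pgf, a ligand of Flt1, was an exception at 11442, 14163 and 5211 in adult control libraries, against 109.7, 130.1 and 122 in E13.5 libraries (log2 fold change 6.28 ± 0.44 SE, adjusted p = 5.14e-07). Tek, the receptor Tie2, had 5349, 5643 and 2383 in adult control libraries, against 14.3, 9.54 and 18.1 in E13.5 libraries. Its activating ligand gene Angpt1 had no read in any adult control library, against 199, 146 and 105 in E13.5 libraries. Angpt2, a context-dependent ligand of Tie2, was lower at 643, 729.9 and 285 in adult control libraries, against 2557, 2234 and 2152 in E13.5 libraries (log2 fold change -2.17 ± 0.36 SE, adjusted p = 3.48e-04). Fibroblast growth factor and PDGF genes were lower in 17 and higher in 1 of 23 cases. Fgfr1 was lower at 2279, 2275 and 2656 in adult control libraries, against 8141, 8201 and 8419 in E13.5 libraries (log2 fold change -1.78 ± 0.24 SE, adjusted p = 8.72e-05). The feedback inhibitor gene Spry1 had 26.0, 24.4 and 19.7 in adult control libraries, against 2636, 2894 and 2716 in E13.5 libraries. Dusp6, a phosphatase that ends ERK signalling, was the member that was higher (0.51, adjusted p = 0.0455). The call of Dusp6 was lost without any 1 of the 6 libraries, left out in turn (adjusted p = 0.0561 to 0.13). Of 15 hedgehog genes 10 were lower. Shh, the ligand of the ventral forebrain, had 0, 0 and 0.986 in adult control libraries, against 2142, 1482 and 1488 in E13.5 libraries. The receptor genes Ptch1 and Smo were not called, with intervals of -0.90 to 0.02 and -0.81 to 1.13. Retinoic acid genes were lower in 11 of 17 cases. Aldh1a2, which makes retinoic acid in mesenchyme, had no read in any adult control library, against 274, 376 and 316 in E13.5 libraries. Aldh1a3, which makes it in the ventral forebrain, had 10.4, 8.13 and 1.97 in adult control libraries, against 752, 2658 and 2659 in E13.5 libraries.

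Guidance genes had 10 members higher and 30 lower of 47. Among the receptors of Slit, Robo4, the form of ECs, had 4309.6, 4532 and 2736 in adult control libraries, against 6.36, 15.6 and 7.63 in E13.5 libraries. Robo1, the form of axons, had no read in any adult control library, against 869, 744 and 735 in E13.5 libraries. Plxnd1, the semaphorin receptor of vessels, was higher at 32298, 34295 and 22927 in adult control libraries, against 2118, 2039 and 2218 in E13.5 libraries (log2 fold change 3.79 ± 0.29 SE, adjusted p = 9.66e-07). Plxnb2, a receptor of class 4 semaphorins, was lower at 2682, 2629 and 3208 in adult control libraries, against 17244, 14159.5 and 14772 in E13.5 libraries (log2 fold change -2.44 ± 0.25 SE, adjusted p = 8.20e-06). Sema3e, a ligand of Plxnd1, had 13.9, 6.10 and 47.3 in adult control libraries, against 3184, 2641 and 2779.7 in E13.5 libraries, so that receptor and ligand were high in opposite sets. Sema3a, a secreted semaphorin, was higher at 8636, 7995 and 8333 in adult control libraries, against 2412, 493 and 458 in E13.5 libraries (log2 fold change 3.35 ± 0.53 SE, adjusted p = 2.83e-04).

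**Figure D4:**
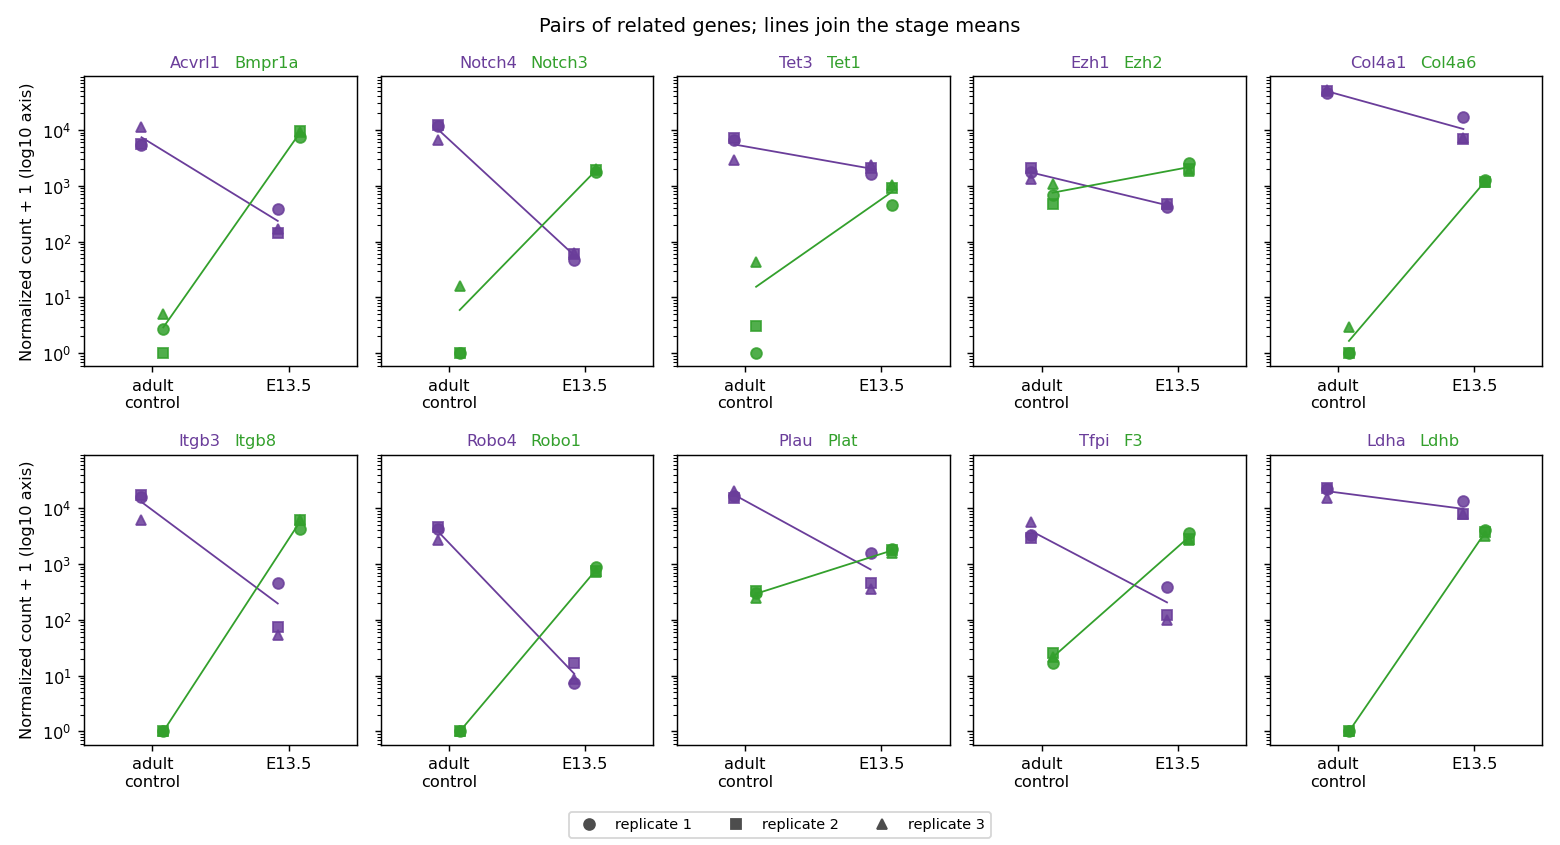
Normalized count plus 1, on a log10 axis, of 10 pairs of related genes in adult control libraries (left column of points) and E13.5 libraries (right column), 1 point per library and a line between the stage means. In the 9 pairs from Acvrl1 and Bmpr1a to Tfpi and F3 the first gene is higher and the second lower in adult control libraries, and in the pair of lactate dehydrogenase genes, Ldha and Ldhb, Ldhb passed the test and Ldha did not. The pairs were chosen after their values were seen.

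Of the coagulation and fibrinolysis genes 9 were higher and 10 lower of 22 (40.9% and 45.5%, against 20.3% and 33.7% of all genes tested). Thbd, which encodes the anticoagulant thrombomodulin, was higher at 11655, 11327 and 10581 in adult control libraries, against 2004, 831 and 826 in E13.5 libraries (log2 fold change 3.33 ± 0.99 SE, adjusted p = 0.0148). Without E13.5 replicate 3 the call of Thbd was lost (adjusted p = 0.0501). Procr, the protein C receptor, was higher at 15418, 14874 and 12727 in adult control libraries, against 299, 178 and 173 in E13.5 libraries (log2 fold change 6.09 ± 0.33 SE, adjusted p = 7.00e-08). Tfpi, the inhibitor of tissue factor, was higher at 3296, 2972 and 5620.0 in adult control libraries, against 395, 121 and 98.3 in E13.5 libraries (log2 fold change 4.49 ± 0.45 SE, adjusted p = 7.89e-06). F3, which encodes tissue factor, had 15.6, 24.4 and 20.7 in adult control libraries, against 3581, 2827 and 2715 in E13.5 libraries (log2 fold change -7.17 ± 0.28 SE, adjusted p = 9.50e-09). Of the plasminogen activators, Plau was higher at 16469, 15438 and 20374 in adult control libraries, against 1595, 453 and 354 in E13.5 libraries (log2 fold change 4.77 ± 0.47 SE, adjusted p = 6.46e-06). The other activator, Plat, was lower at 304, 333 and 243 in adult control libraries, against 1889.6, 1797 and 1607 in E13.5 libraries (log2 fold change -2.59 ± 0.32 SE, adjusted p = 3.73e-05).

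Among vasoactive genes 10 were higher and 11 lower of 25 (40% and 44%, against 20.3% and 33.7% of all genes tested). The endothelin receptor gene Ednrb was higher at 19145, 20219 and 20548 in adult control libraries, against 2849, 3730.2 and 3371 in E13.5 libraries (log2 fold change 2.60 ± 0.55 SE, adjusted p = 0.00207). Edn1, the endothelin gene itself, had 5.20, 4.07 and 23.7 in adult control libraries, against 379.8, 341 and 394 in E13.5 libraries (log2 fold change -5.34 ± 0.64 SE, adjusted p = 3.04e-05). Nos3, the nitric oxide synthase of ECs, had 48839, 51617 and 32846 in adult control libraries, against 19.1, 25.1 and 26.7 in E13.5 libraries. Gucy1a1, a subunit of the guanylate cyclase that senses nitric oxide, had 0, 0 and 1.97 in adult control libraries, against 111, 109 and 97.3 in E13.5 libraries. Its partner Gucy1b1 had no read in any adult control library, against 197, 183 and 125 in E13.5 libraries, so that both were at or near 0 in the cultures with Nos3. Calcrl, the receptor of adrenomedullin, had 11299, 10435 and 38228 in adult control libraries, against 204, 140.5 and 95.4 in E13.5 libraries (log2 fold change 6.87 ± 0.52 SE, adjusted p = 8.20e-07). For leukocyte capture, Selp, which encodes P-selectin, had 7066, 7529.8 and 9667 in adult control libraries, against 36.6, 22.5 and 11.5 in E13.5 libraries. Vcam1, which binds lymphocyte integrins, was lower at 76.3, 48.8 and 1873 in adult control libraries, against 3567, 4979 and 4831 in E13.5 libraries (log2 fold change -4.51 ± 1.26 SE, adjusted p = 0.0103). Among the adult cultures replicate 3 held most of the Vcam1 count, and edgeR did not call Vcam1 (-2.69, adjusted p = 0.0964). Sele, the gene of E-selectin, was not called, with 357, 228 and 395 in adult control libraries, against 152, 469 and 415 in E13.5 libraries and an interval of -1.26 to 1.34. Ccl2, a chemokine of monocytes, was higher at 11544, 11037 and 3505 in adult control libraries, against 157, 118 and 106 in E13.5 libraries (log2 fold change 5.92 ± 0.64 SE, adjusted p = 1.44e-05). Csf1, the growth factor of macrophages, was lower at 549, 462 and 606 in adult control libraries, against 7932, 5677 and 6176 in E13.5 libraries (log2 fold change -3.60 ± 0.28 SE, adjusted p = 9.94e-07). The medians of the vasoactive and leukocyte lists, -0.62 and -0.37, changed sign with quantile normalization.

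Collagen and brain proteoglycan genes were mostly lower in adult control libraries. Of 33 collagen genes 25 were lower and 3 higher. Col4a1, a main chain of vascular basement membrane, was higher at 45900.5, 49786 and 52885 in adult control libraries, against 17218, 6918 and 7092 in E13.5 libraries (log2 fold change 2.39 ± 0.39 SE, adjusted p = 3.59e-04). Its partner chain Col4a2 was higher at 27615, 30867 and 33013 in adult control libraries, against 10269.5, 4501 and 4568 in E13.5 libraries (log2 fold change 2.35 ± 0.43 SE, adjusted p = 7.74e-04). The chain gene Col4a5 had 54.7, 59.0 and 1.97 in adult control libraries, against 4335, 3234 and 3463 in E13.5 libraries. Col4a6, its neighbour on the X chromosome, had 0, 0 and 1.97 in adult control libraries, against 1273, 1165 and 1172 in E13.5 libraries. Col1a1, of fibrillar collagen, had 20.8, 10.2 and 9.86 in adult control libraries, against 5522, 2593 and 2677 in E13.5 libraries. Of the laminin and basement membrane genes 2 were higher and 7 lower of 16. Lama5, a laminin chain of mature vessels, was higher at 14283, 15553 and 11009 in adult control libraries, against 4716, 5222 and 5683 in E13.5 libraries (log2 fold change 1.38 ± 0.16 SE, adjusted p = 2.91e-05). Lama4, the other main chain of vessels, was not called, with 3353, 3346 and 1078 in adult control libraries, against 1216, 832 and 861 in E13.5 libraries. Without adult control replicate 3 Lama4 was called (1.81, adjusted p = 0.00892). Fn1, which encodes fibronectin, was lower at 4220.2, 3723 and 12706 in adult control libraries, against 38844, 20475 and 23902 in E13.5 libraries (log2 fold change -2.19 ± 0.46 SE, adjusted p = 0.00195). 

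Of the integrin genes 7 were higher and 10 lower of 24 (29.2% and 41.7%, against 20.3% and 33.7% of all genes tested). Itgb3, which binds vitronectin and other matrix proteins, was higher at 15858, 16973 and 6117 in adult control libraries, against 461, 72.8 and 53.4 in E13.5 libraries (log2 fold change 6.59 ± 0.69 SE, adjusted p = 1.11e-05). Itgb8, which frees TGF-beta from its latent form, had no read in any adult control library, against 4336, 6253 and 6224 in E13.5 libraries. Itgb1, the common partner chain, was not called, with 30824, 30699.6 and 36533 in adult control libraries, against 44697, 29565 and 29511 in E13.5 libraries and an interval of -0.60 to 0.49. The brain proteoglycan genes were lower in 18 of 23 cases. Ncan, the gene of neurocan, had no read in any adult control library, against 23307, 30719 and 31809 in E13.5 libraries, at least 9382-fold lower with the adult control libraries at the floor of 3 reads each. Of 30 potassium channel genes 23 were lower and 3 higher. Kcnj10, a channel of astrocytes, had 6.07, 1.02 and 0 in adult control libraries, against 800.2, 1086 and 1240.5 in E13.5 libraries. Kcnh2, known for the repolarizing current of the heart, was higher with 761, 792 and 967 in adult control libraries, against 251, 194 and 219 in E13.5 libraries. Of the protocadherins 2 were higher and 9 lower of 11 (median -3.11). Pcdh12, the member of ECs, was among those higher, with 1839.9, 2048 and 1509 in adult control libraries, against 1.59, 0 and 3.82 in E13.5 libraries. Pcdh10, a protocadherin of brain and other tissues, was among those lower, with 1.73, 1.02 and 1.97 in adult control libraries, against 551, 871 and 918 in E13.5 libraries.

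Many genes lay close to each other at both stages. For 4518 of 14763 genes the 95% interval lay within 1 log2 unit of 0, which is the 30.6% given above. Vim, which encodes vimentin and is common to ECs, glia and mesenchyme, had 107087, 106110.0 and 151060.0 in adult control libraries, against 104646, 81446 and 79207 in E13.5 libraries and an interval of 0.05 to 0.84. Actb, the cytoplasmic actin, had 65436, 68077 and 95166 in adult control libraries, against 99926, 72655 and 71981 in E13.5 libraries (-0.54 to 0.34). Sparc, a matrix protein of growing tissue, had 46006, 47491 and 53728 in adult control libraries, against 55455, 55277 and 55452 in E13.5 libraries (-0.79 to 0.43). Msn, which encodes moesin, had 46340.3, 47732 and 35860.5 in adult control libraries, against 33946, 32692 and 33009 in E13.5 libraries (-0.09 to 0.83). Ftl1, the ferritin light chain, had 80873, 83019 and 62151 in adult control libraries, against 53266, 67850.3 and 63848 in E13.5 libraries (-0.09 to 0.66). Hsp90ab1, a chaperone gene, was called higher and still lay within 1 unit, with a log2 fold change of 0.47.

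Genes read at only 1 stage were far more numerous at E13.5. With no read in any adult control library and a mean of at least 100 in E13.5 libraries there were 469 genes, of which 83 had a mean of at least 1000, and they took 1.49% to 1.63% of the E13.5 reads. With no read in any E13.5 library and a mean of at least 100 in adult control libraries there were 20, of which 6 reached 1000, and they took 0.0729% to 0.0843% of the adult reads. Without E13.5 replicate 1 the 20 became 32. Igfbp2, an IGF-binding protein, had no read in any adult control library, against 15127, 12958 and 12042 in E13.5 libraries. Megf10, an engulfment receptor of astrocytes, had no read in any adult control library, against 3857, 7835 and 7787 in E13.5 libraries. Lrp2, also called megalin and active in the forebrain epithelium, had no read in any adult control library, against 6753, 7832 and 9158 in E13.5 libraries. Sox11, a factor of young neurons, had no read in any adult control library, against 3669, 5839.8 and 5819.9 in E13.5 libraries. At the other end, Clca2, a chloride channel regulator of epithelia, had 7420.4, 9159 and 3076 in adult control libraries and no read in any E13.5 library. Dipk2b had 1031, 1165 and 1533 in adult control libraries and no read in any E13.5 library. Psg22, a pregnancy-specific glycoprotein gene, had 797, 885 and 1.97 in adult control libraries and no read in any E13.5 library, so that adult control replicate 3 was nearly at 0. Of the 20 genes 5 were Hox genes, namely Hoxb7, Hoxb6, Hoxd10, Hoxb5 and Hoxa5.

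The libraries of a stage also differed among themselves, more so in adults. Of 10531 genes with a mean of at least 100 in adult control libraries, 2271 (21.6%) had a range of at least 1 log2 unit, and replicate 3 was the farthest in 2207 of them. Of 11792 such genes at E13.5, 877 (7.44%) had that range, and replicate 1 was the farthest in 865. Adult control replicate 3 lay at least 1 log2 unit below both other adult cultures in 21 of 23 cholesterol synthesis genes with that mean, against 6.90% of all such genes. Replicate 3 also lay below both in 11 of 19 tip cell genes and above both in 9 of 25 mitosis genes, where 8.94% of all such genes lay above. Fabp4, a fatty acid-binding protein of capillaries, had 7109.8, 8875 and 112 in adult control libraries. Krt20, a keratin of epithelia, had 6.94, 10.2 and 3641. Col8a1, a collagen of the inner vessel wall, had 19.1, 14.2 and 4019. Fabp4 was not called against E13.5 (-2.21 to 11.22), where it had 179.6, 65.9 and 49.6, and adult control replicate 3 lay inside that range. E13.5 replicate 1 lay at least 1 log2 unit above replicates 2 and 3 in 10 of 14 fibroblast genes, 12 of 24 collagen genes, 14 of 25 mitosis genes and 4 of 11 mural genes, against 3.64% of all such genes. Rgs5, a pericyte gene, had 846, 39.9 and 49.6 in E13.5 libraries. Pdgfra, a fibroblast and glial progenitor receptor, had 2733, 205 and 189.9. Il1rl1, the receptor of interleukin 33, had 1969, 32.9 and 15.3. What set these libraries apart was not tested.

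**Figure D5:**
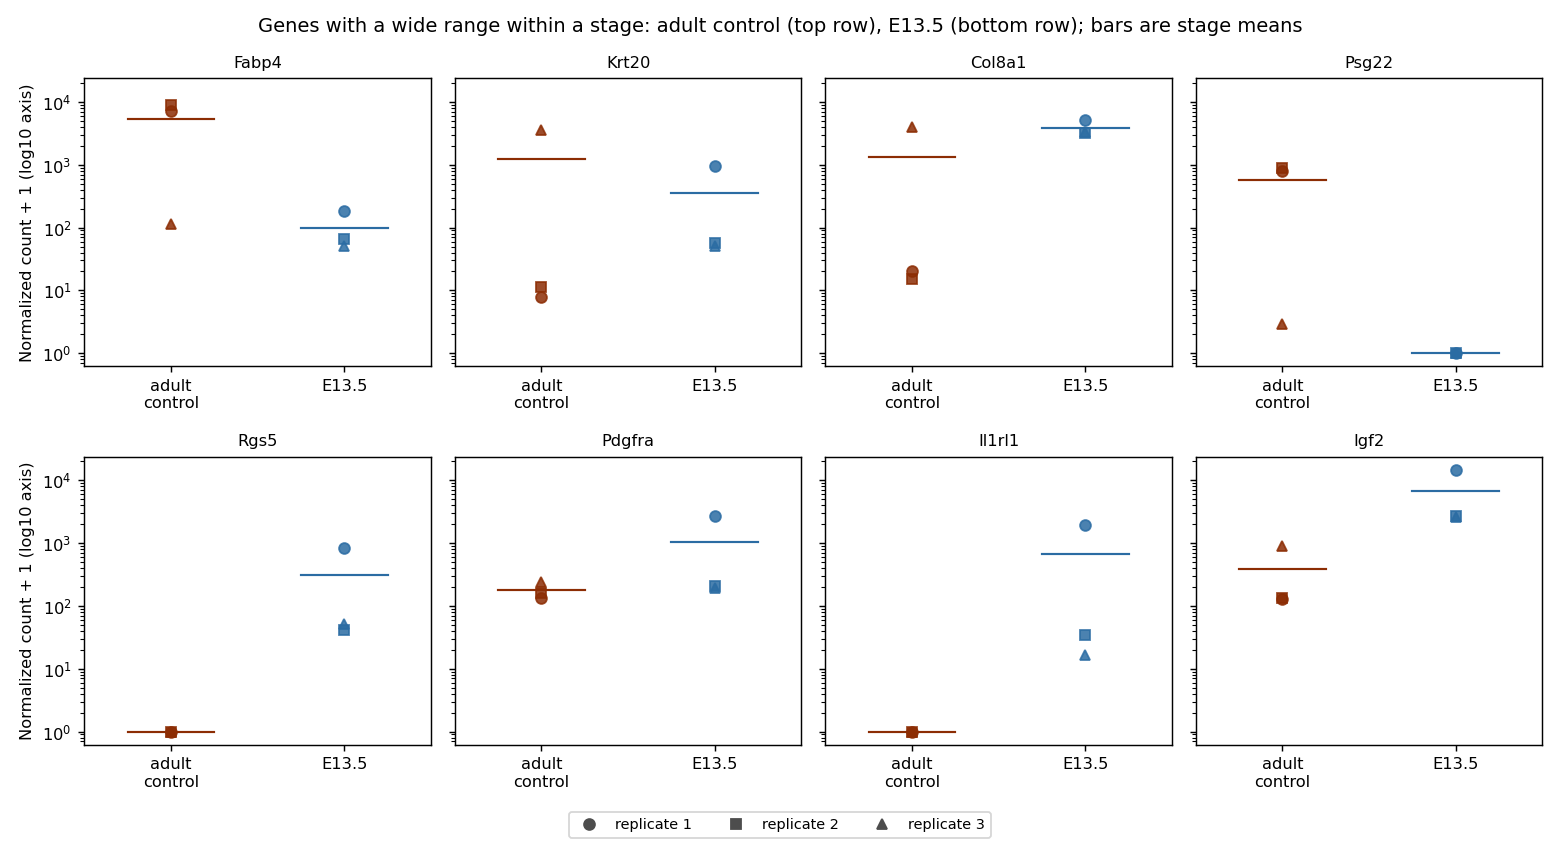
Normalized count plus 1, on a log10 axis, of 8 genes with a wide range within a stage, 1 point per library, adult control replicates 1 to 3 left and E13.5 replicates 1 to 3 right in each panel, with the stage means as bars. Replicate 3 stands apart among adult control libraries for Fabp4, Krt20, Col8a1 and Psg22, and replicate 1 among E13.5 libraries for Rgs5, Pdgfra, Il1rl1 and Igf2.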

How the data were processed

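Cortical endothelial cultures of adult and E13.5 mice were sequenced as poly(A)-selected mRNA libraries. Per the labels and the methods, the authors ran FastQC and cutadapt on the reads, mapped these to mm10 by STAR, counted protein-coding genes of a GENCODE annotation (featureCounts in the processing notes, in-house scripts in the methods) and divided the counts by DESeq2 size factors. Their versions were not given in the sources used here. Deposited values are these normalized counts, a depth-scaled signal for each gene and library. Values were whole multiples of 1 read in 100% of cases (tolerance 0.01), so depth is known. Of 21638 names, 26 had been turned into dates and 1 had a missing value, and these 27 were left out, which leaves 21611.

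The 14763 genes with at least 10 in at least 2 of the 6 libraries were tested as log2(normalized count + 1) with limma 3.58.1 (trend, robust) in R 4.3.3, in a fit of all 12 libraries with group as the term, threshold 0.05 after Benjamini-Hochberg adjustment over all genes. A fold change on this scale understates the change of low genes. On the recovered reads, edgeR 4.0.16 called 3200 genes higher and 4582 lower, and DESeq2 1.42.0 called 3291 and 4928. The pipeline was tested on simulated data with independent libraries. These lack the close pairs seen here, so that test does not bear on their effect. Counting error sets a floor of 3 reads, 2.38 to 3.05 normalized counts per library. P-values measure the spread between these cultures, which may be partly technical. Counts without a stated strand cannot separate overlapping genes.

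The gene lists and named genes were chosen with earlier results of these data known. Named genes are those the study names, up to 4 higher and 4 lower members of each list without overlap and with a mean of at least 100, members that go against their list, the 12 highest means among genes at 0 at 1 stage, called or within 1 log2 unit, the 8 widest ranges in a stage, markers near 0 and all members of lists of up to 18 genes. Of 211 named genes 42 fall outside this rule and were chosen after their values were seen, namely Abcb1a, Aldoa, Apoe, Cald1, Cdc20, Cdk1, Col1a1, Col4a5, Col4a6, Ctsd, Ddx58, Dmrta2, Efnb2, Fabp4, Fgfr1, Gata2, H2-K1, Id3, Ifitm3, Ift52, Igf2, Igf2r, Itgb1, Ldha, Lipg, Mecom, Mest, Mki67, Nlrc5, Notch1, Nr2f2, Nusap1, Plagl1, Plat, Plxnb2, Runx1, Sele, Sema3e, Slc7a5, Stat2, Top2a and Trp53. Some genes under the rule are not reported here.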

Additional observations from a re-analysis of the deposited data

How the results depend on the processing

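The counts of called genes were recomputed under the alternatives. Against 2990 genes higher in adult control libraries, quantile normalization gave 4631, averaging the close libraries 1899 and a threshold of 1 on the absolute log2 fold change 1831. Leaving out 1 library gave 2379 to 3277 higher and 4290 to 5384 lower, against 4975 lower. Quantile normalization gave 3713 lower and called 95 genes in the opposite direction. Lists with more members lower than higher numbered 37 (quantile normalization) to 51 (same total), against 47 of 65. Genes of similar level numbered 3411 with close libraries averaged to 4772 with a pseudocount of 8, against 4518. Genes with no read in E13.5 libraries numbered 19 to 32 when 1 library was left out, against 20, with 32 without E13.5 replicate 1. Genes with no read in adult control libraries numbered 453 to 669, against 469, with 669 without adult control replicate 3.

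The sign of a list's median changed with the same total for ribosomal and glycolysis genes, and with quantile normalization for ribosomal, arterial, HDAC, Polycomb, VEGF and angiopoietin, vasoactive, leukocyte, complement, antigen presentation, integrin and cilium genes. The cause was not tested. None of the 211 named genes that was called changed direction, and 0 to 16 lost their call in an alternative, 16 with the close libraries averaged.

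With the replicate block 2646 genes were higher and 4729 lower. Libraries with the same replicate number did not deviate together (r = 0.07, -0.0001 and 0.02), so the number pairs nothing, and not every library correlated best with its own number. The promoter comparison with its alternative of a mean of at least 1000 was not run, since too few genes matched. At this depth a gene under 3 reads in a library cannot be told from 0.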

Other observations

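Genes of the primary cilium, the antenna through which cells receive hedgehog signals, had 4 members higher and 10 lower of 32 in adult control libraries. These shares, 12.5% and 31.25%, were not above the 20.3% and 33.7% of all genes tested, so the list did not stand out. Intervals within 1 unit of 0 were found for 14 of the 32, and for 30.6% of all genes. Foxj1, the factor that starts motile cilia in the ependyma, had 2.60, 0 and 2.96 in adult control libraries, against 1128, 1666 and 1597 in E13.5 libraries. Rfx3, which works with it, had 0, 0 and 5.92 in adult control libraries, against 763, 1433 and 1553 in E13.5 libraries. Tctn2, of the zone between cilium and cell body, went the other way with 1662, 1747 and 1619.9 in adult control libraries, against 369, 286 and 333 in E13.5 libraries (log2 fold change 2.35 ± 0.25 SE, adjusted p = 1.38e-05). Ift52, of the trains that move cargo along the cilium, was not called, with 1115, 1128 and 1580.5 in adult control libraries, against 853, 959.9 and 877 in E13.5 libraries. Adult control and E13.5 libraries did not overlap for these 4 genes, as for 63.4% of all genes tested. The 4 were named with their values known.

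Lipid uptake genes had 3 higher and 11 lower of 25 (12% and 44%, against 20.3% and 33.7% of all genes tested). Apoe, the apolipoprotein of astrocytes and macrophages, was lower at 135, 80.3 and 73.0 in adult control libraries, against 3512, 6392 and 5875 in E13.5 libraries (log2 fold change -5.77 ± 0.31 SE, adjusted p = 7.14e-08). Lipg, the lipase named for endothelium, had 15.6, 12.2 and 0 in adult control libraries, against 397, 283 and 284 in E13.5 libraries, so it was low in the adult cultures. Acsl4, which activates arachidonic acid, was higher at 8766, 7862 and 5469 in adult control libraries, against 2456, 2103 and 1999 in E13.5 libraries (log2 fold change 1.73 ± 0.33 SE, adjusted p = 0.00112). Of the claudins, Cldn15 had 1162, 1542 and 459 in adult control libraries, against 3.97, 13.01 and 24.8 in E13.5 libraries, and Cldn12 was lower at 802, 817 and 1011 in adult control libraries, against 4924, 6248 and 5940.1 in E13.5 libraries (log2 fold change -2.70 ± 0.14 SE, adjusted p = 5.85e-08). These genes were described after their values were seen.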
